A study of Mus musculus with 6 samples.

Results

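*Qk* and genes of the splicing regulator families were examined in cultured muscle stem cells (MuSCs) that had lost QKI. Genes were taken from the authors' deposited table when the symbol was *Qk* or began with the name of 1 of 13 families (Srsf, Rbm, Rbfox, Mbnl, Celf, Clk, Hnrnp, Luc7l, Ptbp, Khdrbs, Nova, Tra2 and Snrp), outside chromosome 4 above 110 Mb and without pseudogene symbols. The rule found 3 of the 398 genes in the table, *Qk*, *Rbfox1* and *Rbfox2*. None of them lies on chromosome 4, which carries *Pax7* and the Cre allele.

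QKI-cKO mice carried *QKI* alleles with loxP sites around exon 2 (QKI 2lox/2lox) and a Pax7-CreERT2/+ allele, so that the tamoxifen-induced Cre acts in cells that express *Pax7*. QKI-ctrl littermates had the same floxed alleles and a wild type *Pax7* locus (Pax7 +/+). Both groups, of mixed sex on a C57BL/6 background, received 4-hydroxytamoxifen daily for 5 d at 6 to 8 wk of age and were used 10 d later. Every QKI-cKO mouse and no QKI-ctrl mouse had Cre, so an effect of Cre itself and one of QKI loss cannot be told apart. MuSCs were sorted as ITGA7-positive cells negative for CD45, CD11b and Sca1 and were cultured in growth medium for 72 h before polyadenylated RNA was sequenced, with 3 libraries in QKI-cKO and 3 in QKI-ctrl. The deposited table gives 1 pooled FPKM value per gene and group (fragments scaled to transcript length and library size). It holds no value per library, its depth is unknown, and no SD or test between mice could be computed. All 398 rows are marked as significant, so that a gene had to differ between the groups to be listed, and the direction of each gene is given here as a description. The study also set limits on fold change and mean level. Among the higher genes above 0 in both groups, the smallest fold was 1.22. Because bulk RNA was measured, fewer cells of a type and less RNA per cell cannot be told apart.

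QKI is an RNA-binding protein of the STAR family. It recognizes the QKI response element (QRE), a core of ACUAAC or ACUAAU followed at a short distance by UAAC or UAAU, and its nuclear isoform controls the inclusion of exons in pre-mRNA. Rbfox1 and Rbfox2 bind the sequence UGCAUG with a single RNA recognition motif and control many exons of muscle and brain. *Rbfox1* is known mainly from neurons, heart and skeletal muscle, and *Rbfox2* is expressed more broadly.

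The deleted exon of *Qk* is shown because the level of the gene has to be read against it. *Qk* (ENSMUSG00000062078.15) lies on the minus strand of chr17:10202601-10319854 in GRCm38 with GENCODE vM21, and its exon 2 is at chr17:10282839-10282981. Exon 2 is coding over its whole length. Capitals mark exon 2, and the lower case letters are the last 30 bases of exon 1 and the first 30 bases of exon 3 in the transcript Qk-201.
Qk exon 2: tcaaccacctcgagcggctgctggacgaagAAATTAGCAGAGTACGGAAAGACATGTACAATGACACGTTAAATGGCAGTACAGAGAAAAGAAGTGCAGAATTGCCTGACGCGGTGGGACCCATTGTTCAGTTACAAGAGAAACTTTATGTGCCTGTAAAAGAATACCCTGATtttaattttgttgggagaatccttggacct

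Exon 2 is 143 nucleotides long, which leaves a remainder of 2 after division by 3. The reading frame of Qk-201 runs over 325 codons before its stop codon. When exon 1 is joined directly to exon 3, the frame runs over 48 codons and reaches a stop codon in the first bases of exon 3. The complete exon is present in 4 of the 6 annotated *Qk* transcripts. It makes up 2.12% of the 6737 nucleotides of Qk-201, so that nearly all of the transcript lies outside the deleted part.

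**Figure D1:**
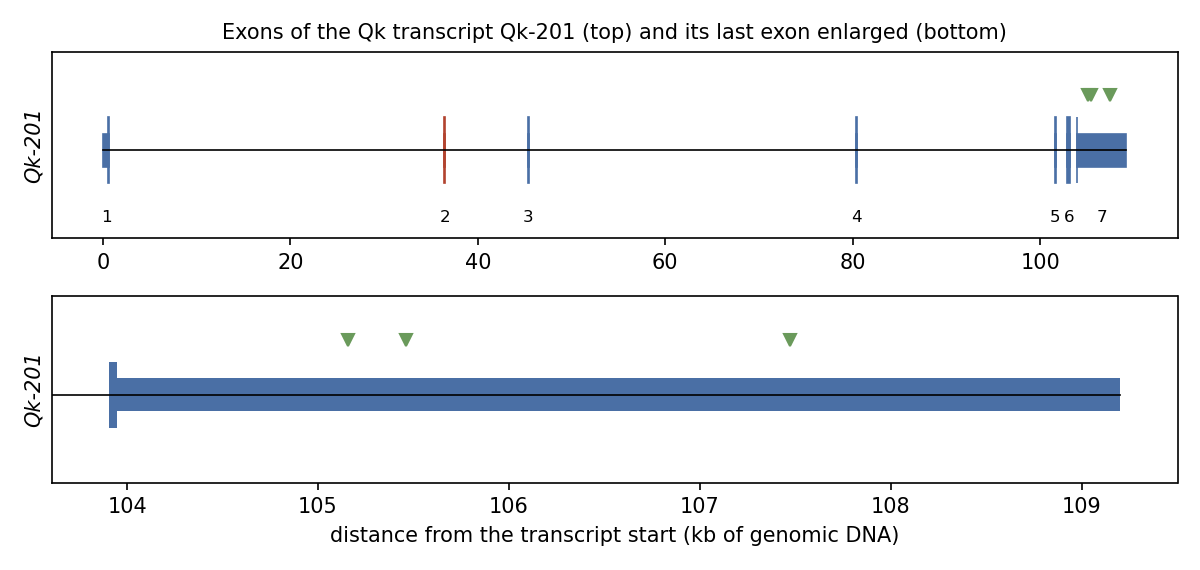
Exon map of the *Qk* transcript Qk-201, drawn to scale, with distance from the transcript start in kb on the x axis. Blue boxes are exons (tall where coding), the red box is exon 2, which is deleted in QKI-cKO, and the green triangles are the 3 bipartite QRE matches in the last exon, which is enlarged in the lower panel.

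*Qk* was listed at 262 FPKM in QKI-cKO MuSCs, against 128 FPKM in QKI-ctrl MuSCs. The level of the whole gene was therefore 2.05-fold higher in QKI-cKO, a log2 ratio of 1.04. This value counts fragments over all exons and checks neither the deletion nor the label of a group, and the table gives no value for exon 2 alone. The study reports that RT-qPCR showed the deletion in the MuSCs used for RNA sequencing. It also reports, from immunostaining, that QKI was ablated in MuSCs on cultured myofibers. Neither measurement was analysed here. The 6 annotated transcripts share 1 value, so the isoforms with different last exons could not be separated.

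*Qk* combined a high level with a large difference. By FPKM, *Qk* was the 12th gene of the table in QKI-cKO and the 16th in QKI-ctrl. The difference of 134 FPKM was the 6th largest gain of the 398 genes. Among the 33 genes that were higher in QKI-cKO and had at least 40 FPKM in QKI-ctrl, a limit chosen after the values were seen, 3 were at least 2-fold higher. These were *Bc1*, a small noncoding RNA of neurons, with 309 FPKM in QKI-cKO and 104 FPKM in QKI-ctrl, *Tkt*, the transketolase of the pentose phosphate pathway, with 189 FPKM in QKI-cKO and 66.2 FPKM in QKI-ctrl, and *Qk*.

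*Rbfox2* (ENSMUSG00000033565.18), on the minus strand of chr15:77078990-77307004, was listed at 69.7 FPKM in QKI-cKO and 44.1 FPKM in QKI-ctrl. It was 1.58-fold higher in QKI-cKO, with a log2 ratio of 0.66. *Rbfox2* ranked 34th in the table by its FPKM in QKI-cKO and 53rd in QKI-ctrl, which makes it the more abundant of the Rbfox genes listed. Its gain of 25.6 FPKM was the 20th largest of the table.

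*Rbfox1* (ENSMUSG00000008658.16), on the plus strand of chr16:5885355-7411526, was at the low end of the table. It was listed at 1.16 FPKM in QKI-cKO and 0.534 FPKM in QKI-ctrl, a 2.17-fold higher level with a log2 ratio of 1.12. By FPKM it was the 315th gene in QKI-cKO and the 357th in QKI-ctrl. The ratio depends on these low values, and with 1 FPKM added to each group it was 0.49 on the log2 scale. The difference between the groups was 0.623 FPKM, so that the gene with the largest ratio of the 3 had the smallest gain.

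**Figure D2:**
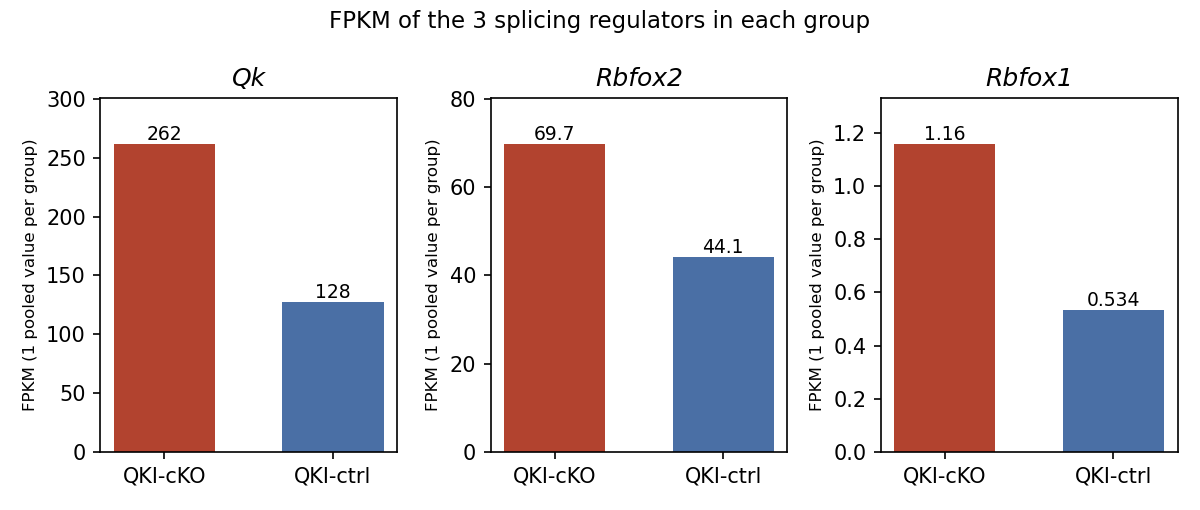
FPKM of *Qk*, *Rbfox2* and *Rbfox1*, with QKI-cKO in red and QKI-ctrl in blue, and a y axis of its own for each gene. Each bar is the single pooled value of a group and has no error bar; *Qk* reached 262 FPKM and *Rbfox1* 1.16 FPKM in QKI-cKO.

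Since FPKM is scaled per length, the levels of the 3 genes can be set beside each other. The *Qk* level was 3.75 times that of *Rbfox2* in QKI-cKO and 2.90 times in QKI-ctrl. The *Rbfox2* level was 60.2 times that of *Rbfox1* in QKI-cKO and 82.5 times in QKI-ctrl. The order *Qk*, *Rbfox2*, *Rbfox1* was thus the same in both groups.

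All 3 genes were higher in QKI-cKO and 0 were lower, while of all 398 genes 57.3% were higher and 42.7% lower. At least 1.5-fold higher were the 3 genes and 25.6% of the table, and at least 2-fold higher were *Qk*, *Rbfox1* and 8.54% of the table. Ordered by log2 ratio from the highest, *Rbfox1* was 27th, *Qk* 33rd and *Rbfox2* 87th of 398. The median log2 ratio of the higher genes was 0.55 over the 227 of them with a value above 0 in both groups. With 3 genes chosen from a list of called genes, these shares are a description, and nothing is read from them about the families.

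**Figure D3:**
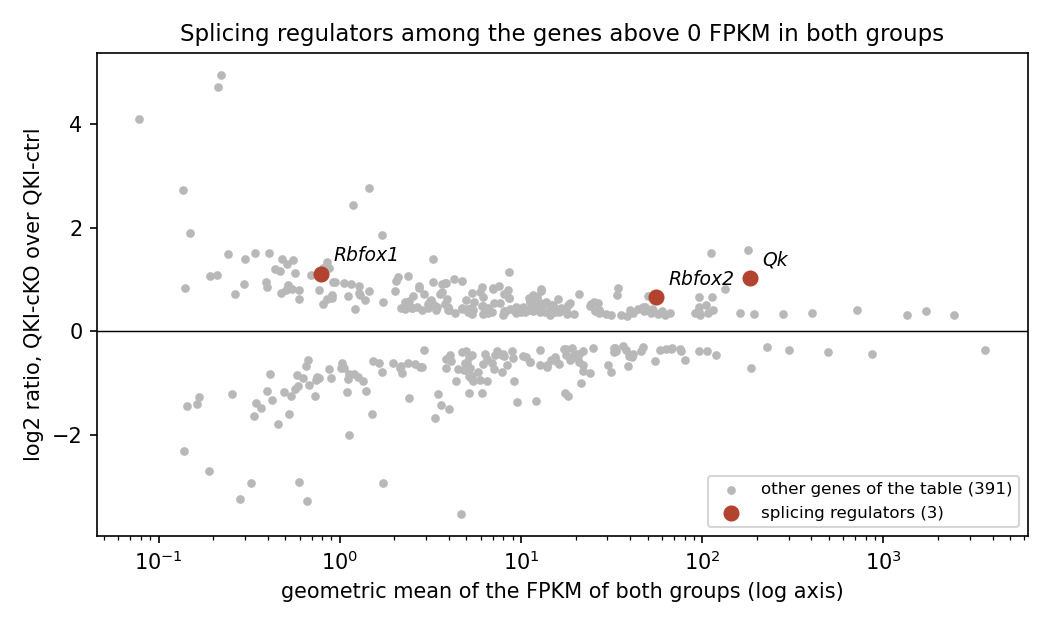
Log2 ratio of QKI-cKO over QKI-ctrl (y axis) against the geometric mean of the FPKM of both groups (x axis, log scale) for the 394 genes above 0 in both groups. Grey points are other genes of the table and red points the splicing regulators; *Qk* and *Rbfox2* lie among the abundant genes with log2 ratios of 1.04 and 0.66, and *Rbfox1* lies among the low ones at 1.12.

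The families of the rule, with *Qk*, comprise 119 protein-coding genes in GENCODE vM21, of which 3 have a row in the table. The Rbfox family has 2 of its 3 genes there. The other 12 families, with 115 annotated genes, have 0 rows, among them the SR proteins (Srsf), the muscleblind proteins (Mbnl), which control fetal to adult exon choices in muscle, and the polypyrimidine tract binding proteins (Ptbp), which repress many muscle and neuronal exons. Of the 22028 protein-coding genes annotated, 331 have a row. A gene with no row has no value here, and its level was not analysed.

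A pseudogene of these families, *Hnrnpa1l2-ps*, is in the table and was left out by the rule. It was listed at 0.192 FPKM in QKI-cKO and 0.596 FPKM in QKI-ctrl, a log2 ratio of -1.64. It is the only gene with a family symbol that was lower in QKI-cKO.

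Genes with the most similar pair of values were looked up for each regulator, by the distance between log2(FPKM + 0.1) values over the 2 groups, without predicted genes and pseudogenes. The nearest to *Qk* were *Bc1*, at a distance of 0.38, *Crip1* (0.50) and *Rpph1* (0.54). The nearest to *Rbfox2* were *Mmp14* (0.19), *Serpine2* (0.19) and *Itgb4* (0.20), which encode a membrane metalloprotease, a serine protease inhibitor and an integrin subunit. The nearest to *Rbfox1* were *Myom3*, a sarcomere M-band protein, at 0.08, *Krtcap3* (0.21) and *Dok3* (0.21). *Myom3* lies on chromosome 4. The distances rest on 2 values per gene and say nothing about shared function.

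Other genes of RNA processing were counted from 4 lists of 174 genes in all, not counting *Qk*. Of these, 10 were in the table, 8 higher and 2 lower in QKI-cKO, beside 57.3% higher over all 398 genes. Their median log2 ratio was 0.45, beside 0.37 over the 394 genes above 0 in both groups. The lists were written with earlier results of these data known. The list of 44 core spliceosome factors had 0 genes in the table. The list of other RNA-binding regulators of splicing had *Qk* alone.

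The list of nuclear speckle, SR protein kinase and SR-related genes had 3 genes in the table. All were higher in QKI-cKO, beside 57.3% over all 398 genes. *Neat1*, the long noncoding RNA that scaffolds paraspeckles, was at 46.2 FPKM in QKI-cKO and 25.7 FPKM in QKI-ctrl (log2 ratio 0.84). *Rsrp1*, which encodes an arginine- and serine-rich protein, was at 69.2 FPKM in QKI-cKO and 52.4 FPKM in QKI-ctrl (0.40), and *Ccnl2*, which encodes the speckle protein cyclin L2, was at 58.7 FPKM in QKI-cKO and 45.9 FPKM in QKI-ctrl (0.35). *Rsrp1* and *Ccnl2* lie on chromosome 4 above 110 Mb, the chromosome of the Cre allele. The rule left this region out for the regulators, but both genes are among the 8 higher genes counted above.

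The list of genes of mRNA stability, translation and editing is broader than its name and takes in other genes of RNA metabolism. It had 7 of 57 genes in the table, 5 higher and 2 lower, beside 57.3% higher over all 398 genes. *Adarb1*, an enzyme that edits adenosine to inosine, was at 21.5 FPKM in QKI-cKO and 15.2 FPKM in QKI-ctrl (log2 ratio 0.51). *Apobec2*, a muscle member of the cytidine deaminase family, was at 16.1 FPKM in QKI-cKO and 11.2 FPKM in QKI-ctrl (0.53). The 2 lower genes were *Igf2bp2*, which binds and stabilizes mRNAs and was at 1.73 FPKM in QKI-cKO and 2.75 FPKM in QKI-ctrl, and *Tarbp1*, an RNA methyltransferase, at 3.98 FPKM in QKI-cKO and 7.24 FPKM in QKI-ctrl. The log2 ratio was -0.67 for *Igf2bp2* and -0.86 for *Tarbp1*. The other 3, *Rnaset2a*, *Tent5c* and *Rpph1*, had log2 ratios of 0.35 to 0.56. For *Apobec2*, *Rnaset2a*, *Rpph1* and *Tarbp1* the locus in the table is wider than the annotated gene, so fragments of neighbouring or overlapping genes may be included.

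**Figure D4:**
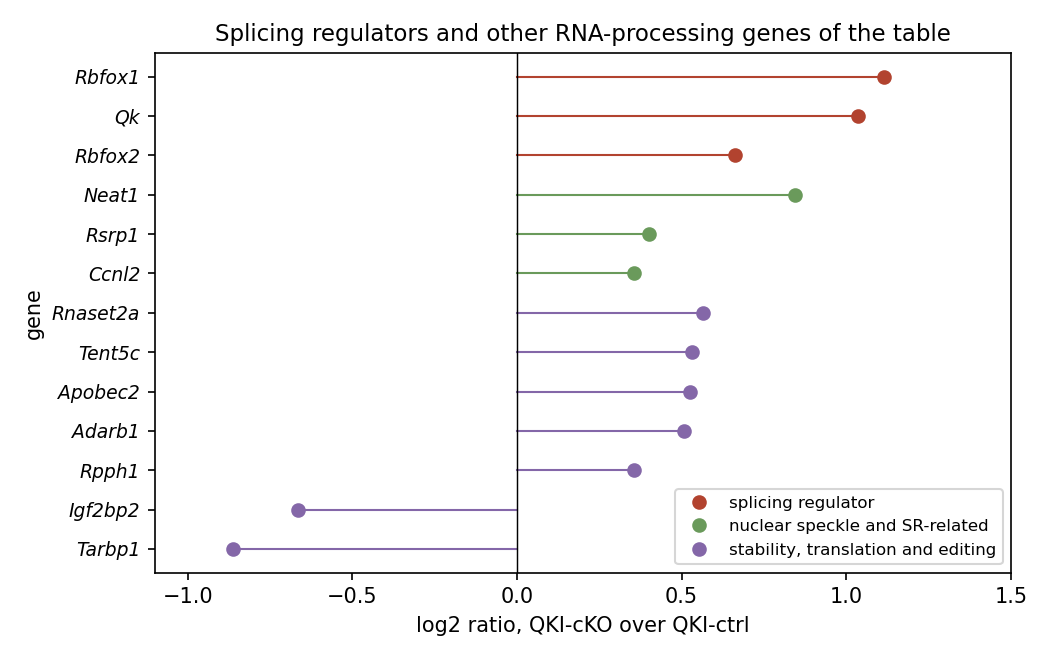
Log2 ratio of QKI-cKO over QKI-ctrl (x axis) for the 3 splicing regulators and the 10 genes of the RNA lists found in the table (y axis), coloured by group. Each point is a ratio of 2 pooled values without error. Of the 13 genes, 11 lie right of 0, beside 57.3% of all 398 genes, and *Igf2bp2* and *Tarbp1* lie left of it. The 11 include *Rsrp1* and *Ccnl2*, on chromosome 4 above 110 Mb, a region the rule left out.

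Genes listed as bound or regulated by QKI, and genes listed as holding exons controlled by Rbfox proteins, were also looked up. Of 19 genes of the QKI list, 2 had a row. The list takes in genes whose splicing this study itself reports from the same RNA sequencing, *Itga7* among them. *Macroh2a1*, a histone variant whose exons QKI controls, was at 133 FPKM in QKI-cKO and 99.4 FPKM in QKI-ctrl (log2 ratio 0.42), and *Itga7*, the integrin used to sort the cells, was at 145 FPKM in QKI-cKO and 237 FPKM in QKI-ctrl (-0.71). Of 16 genes of the Rbfox list, only *Ank2*, a membrane adaptor, had a row, with 3.82 FPKM in QKI-cKO and 6.91 FPKM in QKI-ctrl (-0.85). These are levels of whole genes and say nothing about the choice of exons, and the table's loci of *Macroh2a1* and *Itga7* are wider than the annotated genes.

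Cell type markers in the table were read beside the regulators. Of 13 genes of differentiating muscle, 10 were in the table and all 10 were lower, while of all 398 genes 42.7% were lower. Their summed level was 18.3 FPKM in QKI-cKO and 48.3 FPKM in QKI-ctrl, with a median log2 ratio of -1.39. Muscle genes outside this list went in both directions. *Sspn*, which also served to assign the columns, was lower in QKI-cKO, and *Myom3* and *Apobec2* were higher. *Myom3*, on chromosome 4, was at 1.23 FPKM in QKI-cKO and 0.526 FPKM in QKI-ctrl, and *Apobec2* at 16.1 FPKM and 11.2 FPKM. *Myl1*, *Myl4*, *Myh3* and *Mybph* are also among the genes by which the columns of the table were assigned to the groups, so their direction is no finding. The summed level and the median given above include them. The other 6 genes of the list were not used to assign the columns. The list was adapted with earlier results of these data known, so the direction of these 6 is a description as well. The table's loci of *Actc1*, *Apobec2*, *Myh1* and *Mybph* are wider than the annotated genes. The list includes *Myl1*, a myosin light chain, at 0.625 FPKM in QKI-cKO and 4.75 FPKM in QKI-ctrl, and *Mylpf*, a myosin light chain of fast fibres, at 5.90 FPKM in QKI-cKO and 15.3 FPKM in QKI-ctrl. Their part in the values of *Qk*, *Rbfox1* and *Rbfox2* was not tested.

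Of 8 muscle stem cell and myoblast markers, *Itga7* and *Vcam1* had a row, *Vcam1* with 44.9 FPKM in QKI-cKO and 67.1 FPKM in QKI-ctrl. The defining markers *Pax7*, *Myf5* and *Myod1* have no row, so the label could not be checked against them. None of 11 neuronal, 6 fibro-adipogenic or 6 smooth muscle and pericyte markers had a row. Schwann cell markers had 1 of 8 (*Ngfr*, 10.2 FPKM in QKI-cKO and 5.53 FPKM in QKI-ctrl), leukocyte markers 1 of 8 (*Laptm5*, 19.9 FPKM in QKI-cKO and 12.9 FPKM in QKI-ctrl) and endothelial markers 1 of 6 (*Esm1*, 4.05 FPKM in QKI-cKO and 9.26 FPKM in QKI-ctrl). *Laptm5* lies on chromosome 4 above 110 Mb, and the table's loci of *Vcam1* and *Esm1* are wider than the annotated genes. The part of these markers in the values of the splicing regulators was not tested either.

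The 3 genes were compared in features of their annotation and sequence. All are long genes. *Rbfox1*, with a span of 1526172 bp, was the longest of the 397 genes of the table with transcript sequence. *Rbfox2*, with 228015 bp, was the 16th, and *Qk*, with 117254 bp, the 41st, beside a median of 18.4 kb. In the table, 37 of the 56 genes over 100 kb were higher in QKI-cKO (66.1%), as were 191 of the 341 shorter genes (56.0%). Across 394 genes, span and log2 ratio had a Spearman correlation of 0.07, given as a description, since genes are not replicates and all values come from the same 2 pools.

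Within exons the genes differed. *Qk* has 14242 exonic bases, *Rbfox2* 8140 and *Rbfox1* 4400, and the 4 annotated genes that lie over *Rbfox2* and the 1 over *Rbfox1* share 0 exonic bases with them. The core of the QRE was searched as ACTAAC and ACTAAT on the sense strand of the exons. These sequences can overlap each other by 2 bases, and each match was counted. *Qk* holds 11 matches (0.772 per kb), and *Rbfox1* and *Rbfox2* hold 0. Only 1 gene of the table has more matches than *Qk*, and 202 of the 397 genes have at least 1. *Qk* is also the 8th of these genes by exonic bases, and by matches per kb it was the 36th. Its exons are poor in G and C (39.3%, the 381st of the 397 genes). Across the 394 genes above 0 in both groups, match density and log2 ratio had a Spearman correlation of -0.11, again only a description.

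The bipartite form of the element (the core, then 1 to 20 bases, then TAAC or TAAT) was found at 4 places in *Qk*, all in the 3' untranslated regions of its transcripts. They are shown because QKI is known to bind RNA at such elements. *Rbfox1* and *Rbfox2* hold 0, and 53 genes of the table (13.3%) hold at least 1 in an annotated transcript. Capitals mark the core and the second part.
Qk chr17:10214215-10214227: ACTAATgttTAAT
Qk chr17:10213911-10213924: ACTAATcaccTAAT
Qk chr17:10211902-10211915: ACTAACacaaTAAT
Qk chr17:10206526-10206555: ACTAACtctggactatgtttgtttatTAAC

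Such matches are common in long transcripts. The longest *Qk* transcript has 8547 bases, 7 core matches and 1 bipartite match. Of 1243 protein-coding genes whose longest transcript is within 20% of that length, 81.9% hold a core match, 2.49% hold at least 7, and 26.1% hold a bipartite match. Of 2020 genes of the length of *Rbfox2*, 74.4% hold a core match, and of 5012 genes of the length of *Rbfox1*, 45.3% do. The Rbfox sequence TGCATG, which can overlap itself and was searched on the same strand, occurs 8 times in the exons of *Qk*, once in those of *Rbfox1* and not in those of *Rbfox2*. At least 1 is held by 56.2% of the 397 genes of the table. In longest transcripts, 89.0% of genes of the length of *Qk* hold it, 55.6% of those of the length of *Rbfox1* and 83.2% of those of the length of *Rbfox2*. The genes of like length were not matched for base composition. A match is not a binding site, and introns were not searched.

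The Rbfox genes are copies of 1 ancestral gene, so their transcripts were compared for shared sequence. Of their internal coding exons, 5 pairs have the same length and at least 70% identical bases, with 83.8% identity over 302 bases. The most similar pair is an exon of 93 nucleotides in the RNA recognition motif, with 92.5% identity. Capitals mark the 7 bases that differ.
Rbfox1 chr16:7292185-7292277: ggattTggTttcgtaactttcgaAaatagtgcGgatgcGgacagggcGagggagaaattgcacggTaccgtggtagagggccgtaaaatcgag
Rbfox2 chr15:77105577-77105669: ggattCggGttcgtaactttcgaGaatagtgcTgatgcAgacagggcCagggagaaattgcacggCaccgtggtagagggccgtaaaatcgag

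The longest identical run between any annotated *Rbfox1* and *Rbfox2* transcripts was 29 bases, and 0 runs of 100 bases, the length of the reads, were shared. With *Rbfox3*, which has no row in the table, the longest identical run was 20 bases for *Rbfox1* and 14 bases for *Rbfox2*. No stretch of read length is thus identical between the annotated transcripts of *Rbfox1* and *Rbfox2*, also over the RNA recognition motif. Only exact runs were compared, and the reads had been trimmed. Whether shortened or mismatched reads were assigned to the wrong copy was not tested.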

How the data were processed

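Polyadenylated RNA of MuSCs was sequenced as 3 QKI-cKO and 3 QKI-ctrl stranded paired-end libraries, which the study calls biological replicates. The number of mice per library is not given. Trimmomatic (read trimming), STAR (alignment to mm10/GRCm38) and the Cufflinks suite were used by the authors. The deposited FPKM values carry their scaling to the geometric mean of fragment counts, which sets libraries of different depth on 1 scale, and combine the 3 libraries of a group. The annotation and strand setting used for expression are not given in the sources used here. The file headers name the groups only as q1 and q2. These were taken as QKI-ctrl and QKI-cKO, since all 5 of *Myl1*, *Myl4*, *Myh3*, *Sspn* and *Mybph*, which the study names as down-regulated, are lower in q2. The authors' fold changes, test statistics, p-values and q-values are also in the table and were not used. The table has 0 unused columns of single samples.

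Ratios were computed from the FPKM as deposited, without a pseudocount or filter. No test was made, because each group has 1 value. All 398 Ensembl IDs, stripped of their version, were found in GENCODE vM21 (GRCm38), and each locus equals or contains the annotated gene. Sequences and motifs came from its transcripts, and the counting steps were tested on simulated data. Protein sequences were not used here. The genes named are the 3 genes of the rule, the pseudogene left out, the 3 nearest genes each, and list members found in the table. *Tkt* falls outside this rule and was named after its values were seen. The genes and lists were chosen with earlier results of these data known. Alternatives were pseudocounts of 0.1 and 1 FPKM, median scaling, a minimum of 1 FPKM, exclusion of predicted genes, a fold limit of 2, and other motif settings. Python 3.11.15, numpy 2.4.6, pandas 2.3.3 and matplotlib 3.10.9 were used.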

Additional observations from a re-analysis of the deposited data

How the results depend on the processing

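The log2 ratio of *Rbfox1* was 0.99 with 0.1 FPKM added and 0.49 with 1 FPKM added, as follows from its low level, while those of *Qk* and *Rbfox2* stayed within 0.1 of their values with both pseudocounts. Dividing each group by its median FPKM shifted all log2 ratios by 0.0099. The 3 genes were higher in QKI-cKO in each of these settings. The same value added to both groups cannot reverse a direction, and the shift by scaling was small, so this does not check the direction. With a minimum of 1 FPKM in the higher group, 200 of 342 genes of the table were higher (58.5%), and without predicted genes and pseudogenes 203 of 333 (61.0%). At least 2-fold higher were 34 genes, against 102 at 1.5-fold. With ACTAAC alone, *Qk* had 0.351 matches per kb of exon, and in its longest transcript, a setting chosen after seeing the data, it had 0.819 with both sequences. No paired analysis was possible because the table holds 1 pooled value per group, and for the same reason no library could be left out. The spread between mice and the depth behind each value are unknown, so the precision of these ratios cannot be given.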
